A study of Mus musculus with 4 samples.

Results

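Chromosome 8 was examined as all H3K9me3 islands listed on it in CD8+ T cells of Suv39h1-KO mice and of wild-type (WT) mice. It held 1357 of the 25424 islands in the KO list and 502 of the 12371 islands in the WT list. The chromosome was chosen because covered length, KO over WT, was highest there among the 19 autosomes, so the contrast between the lists is given as a description without a test. The ratio was 2.59 on chromosome 8, against 2.14 on chromosome 4 and 2.13 on chromosome 14, the next in order.

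The KO group was Suv39h1-KO CD8+ T cells and the WT group was wild-type CD8+ T cells, called littermates in the title of the series. Cells of both genotypes had a C57BL/6 background and were kept for 3 days with antibodies against CD3 and CD28 plus IL-2. Chromatin was cross-linked with formaldehyde, and H3K9me3 was pulled down with 1 antibody and sequenced, giving 1 library per genotype. How the allele was deleted, in which cells, and how many animals were pooled are not stated in the labels, and the 2 input libraries are not analysed here. An island list measures neither Suv39h1 itself nor cell type markers, so neither label was checked. Island reads on chromosome 8 came to 535329 in KO and 209973 in WT, and with 1 library per genotype no difference below could be set against the spread between replicates.

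H3K9me3 is trimethylation of lysine 9 on histone H3, a mark of silent chromatin that is bound by HP1 proteins. SUV39H1 and its relative SUV39H2 are known for laying it down at repeats next to centromeres, and SETDB1 for laying it down at retroelements and zinc finger genes. In T cells, SUV39H1 is known as a silencer of genes of other differentiation states. An island here is a run of windows with more reads than the background, joined by the caller SICER across short gaps. It thus marks a broad domain and not a single site, and not every window in it need exceed the background.

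Few promoters of chromosome 8 lay under an island, and 4 of them are shown because their genes belong to groups described below; they were chosen after the values were seen. They are windows of 300 bases around annotated starts, from 250 bases before to 50 after, as RefSeq gives them on GRCm38.p6, the assembly that mm10 names. Each is written 5′ to 3′ on the strand of its gene, with the dinucleotide CG in capitals. The Gpm6a window (chr8:54954478-54954777, plus strand) is an internal start of a neuronal membrane glycoprotein gene, and the Ces1a window (chr8:93048143-93048442, minus strand) belongs to a carboxylesterase. Both windows were touched by KO islands alone. The Zfp882 window (chr8:71908356-71908655, plus strand) belongs to a zinc finger gene and was touched by a WT island alone. The Cd209e window (chr8:3854237-3854536, minus strand) belongs to a C-type lectin and was touched by islands of both lists.
Gpm6a: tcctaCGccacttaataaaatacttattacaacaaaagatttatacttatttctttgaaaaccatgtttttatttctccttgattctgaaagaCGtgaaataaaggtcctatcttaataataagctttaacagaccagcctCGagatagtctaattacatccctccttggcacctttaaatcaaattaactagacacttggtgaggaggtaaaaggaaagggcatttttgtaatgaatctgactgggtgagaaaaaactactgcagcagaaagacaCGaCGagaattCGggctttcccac
Ces1a: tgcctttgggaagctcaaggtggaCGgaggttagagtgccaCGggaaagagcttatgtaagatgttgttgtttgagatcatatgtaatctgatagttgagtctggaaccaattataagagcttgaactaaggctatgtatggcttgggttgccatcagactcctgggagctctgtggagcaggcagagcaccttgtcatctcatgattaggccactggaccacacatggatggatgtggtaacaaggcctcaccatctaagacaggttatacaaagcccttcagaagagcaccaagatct
Zfp882: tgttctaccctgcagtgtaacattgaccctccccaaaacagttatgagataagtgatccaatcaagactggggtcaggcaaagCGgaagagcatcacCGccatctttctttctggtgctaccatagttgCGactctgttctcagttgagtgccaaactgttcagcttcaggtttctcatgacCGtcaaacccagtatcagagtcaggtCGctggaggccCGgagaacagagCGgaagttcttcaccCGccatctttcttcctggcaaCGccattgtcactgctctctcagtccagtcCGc
Cd209e: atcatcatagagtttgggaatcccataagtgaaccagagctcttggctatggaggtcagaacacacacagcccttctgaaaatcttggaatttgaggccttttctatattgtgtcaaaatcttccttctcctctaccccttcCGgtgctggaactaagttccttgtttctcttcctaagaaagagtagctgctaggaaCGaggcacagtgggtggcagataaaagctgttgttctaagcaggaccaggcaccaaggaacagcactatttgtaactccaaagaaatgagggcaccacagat

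These windows held 6 CG in Gpm6a, 2 in Ces1a, 10 in Zfp882 and 2 in Cd209e. Of the 1442 windows on chromosome 8, which stand for 725 of its 1043 protein-coding genes and for other genes, 36 were touched by KO islands alone, 34 by WT islands alone and 9 by both. Over all autosomes 2.99% of windows lay in KO alone and 2.3% in WT alone, against 2.50% and 2.36% on chromosome 8. The median number of CG was 2 in windows under KO islands alone, 4 under WT islands alone, 2 under both and 8 in the 1363 windows under neither. Windows with at least 1 CG made up 88.9% of those under KO alone, 100% of those under WT alone and 66.7% of those under both, against 96.2% of all windows on chromosome 8 and 94.7% of those on the other autosomes. The medians on the other autosomes were 2 under KO islands alone, 2 under WT islands alone, 1 under both and 8 under neither. Covered starts were thus mostly poor in CG in both lists. Among the 56 miRNA genes, only Mir383 and Mir710 had an island within 2 kb, both in KO alone (3.57%), a share near the 3.70% of miRNA genes in KO alone on the other autosomes. Mir383, which lies within the span of Sgcz, had 2.37 kb of KO island over its 4.07 kb region. Mir710 (chr8:64514332-64514441, minus strand) lay wholly inside one, and its mature form from RefSeq is given with bases 2 to 8, the seed, in capitals.
mmu-miR-710: cCAAGUCUuggggagaguugag

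The high ratio of chromosome 8 went with low WT cover and not with unusually high KO cover. Measured over its 127 bins of 1 Mb, islands covered 10.6% of the sequence in KO and 4.10% in WT. The KO value ranked 7 of 19 autosomes, inside a range of 7.20% to 14.6% on the other 18. The WT value was the lowest of the 19, below a range of 4.48% to 7.51%. KO islands on chromosome 8 covered 13.5 Mb and WT islands 5.20 Mb, a difference of 8.295 Mb. The ratio of island numbers was 2.70 on chromosome 8 and 1.39 to 2.43 on the others. When the KO list was reduced to as many islands as the WT list over the genome, the ratio of covered length on chromosome 8 turned to 0.978 if the KO islands with most reads per kb were kept, and was 1.70 if those with most reads were kept. It was still the highest of the 19 autosomes under both reductions. The chromosome was chosen for this ratio in the same islands, so that rank is description only.

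**Figure D1:**
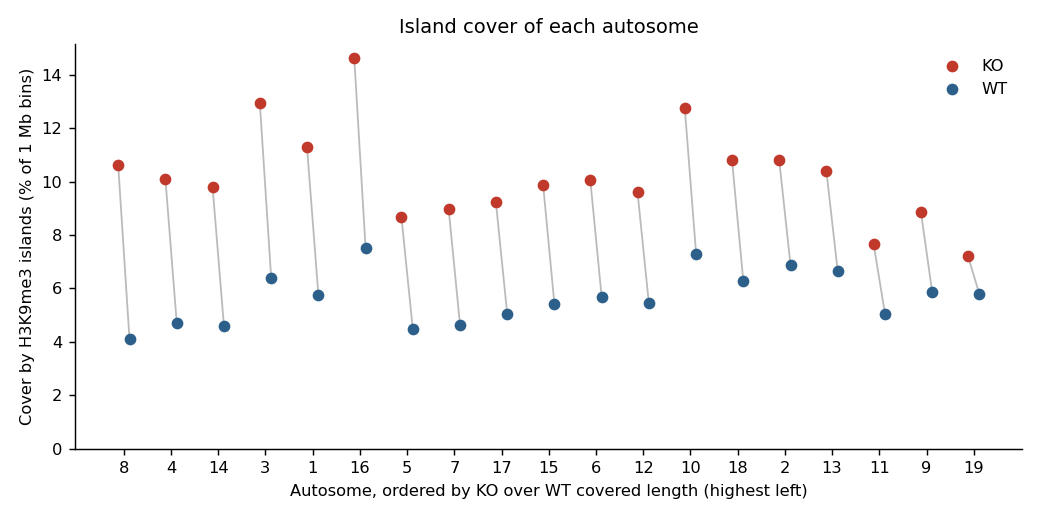
Share of each autosome's 1 Mb bins covered by islands (%), with 1 point for the KO library (red, left) and 1 for the WT library (blue, right) per autosome, ordered by the KO over WT ratio of covered length. Chromosome 8 stands first with 10.6% in KO and 4.10% in WT, the lowest WT value drawn.

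Islands were not typically longer in KO. They had a median length of 9 kb in KO and 10 kb in WT, and a mean of 9.95 kb in KO and 10.4 kb in WT. The median density was 39.8 reads per kb in KO and 40.5 in WT, with quartiles of 37.9 and 42.0 in KO and 38.0 and 43.5 in WT. The KO list thus held more islands of similar typical size and density. The longest islands were in KO, with 15 of 1357 at 25 kb or more against 1 of 502 in WT. The maximum was 43.5 kb in KO and 25 kb in WT. The counts are not scaled to depth, which is not known here, so like densities do not show equal enrichment.

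Most of the KO cover was at places without a WT island. Both lists shared 1.78 Mb, which was 13.2% of the KO cover and 34.2% of the WT cover, while 11.7 Mb was in KO alone and 3.42 Mb in WT alone. On the other autosomes the lists shared 41.9 Mb, out of 235.6 Mb covered in KO and 131.1 Mb in WT. A WT island overlapped 256 of the 1357 KO islands (18.9%, exact 95% interval 16.8 to 21.1, counting error only), against 24.9% over all autosomes. A KO island overlapped 247 of the 502 WT islands (49.2%, 44.7 to 53.7), against 48% over all autosomes. Both intervals treat neighbouring islands as independent and hold no spread between libraries, so they do not test these differences. The chromosome was chosen for high KO cover relative to WT cover, which favours a low share of overlapped KO islands. The comparisons with all autosomes are therefore description only. Of the 1101 KO islands without a partner, 483 (43.9%) lay more than 100 kb from any WT island, and of the 255 such WT islands 72 (28.2%) lay that far from any KO island. With 502 WT islands against 1357 in KO, a KO island has fewer islands of the other list to lie near. The same shares for the other autosomes are not given here, so nothing is read from them.

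At 37 places both lists had an island of nearly the same extent, each covering at least 80% of the other. There the median density was 41.7 reads per kb in KO and 40.8 in WT, and the median of the paired ratios, KO over WT, was 0.984, with a range of 0.755 to 1.15. They included places within Sgcz, Galntl6, Iqcm, Msr1 and Il15. The lowest ratio was at Zfp930, a zinc finger gene, where the KO island chr8:69213001-69233500 held 898 reads and the WT island chr8:69213001-69235500 held 1305.

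Along the chromosome, KO cover exceeded WT cover in 85 of 127 bins, WT cover exceeded KO cover in 33, and 9 were equal, 8 of them with no island in either list. A bin was called when cover in 1 list was at least 2 times, and at least 50 kb above, that in the other. KO was called higher in 59 bins (46.5%), against 34.1% of bins over all autosomes, and WT in 8 (6.30%), against 4.77%. The chromosome was chosen on this contrast, so nothing is read from those shares. KO minus WT summed to 9.29 Mb over the bins with more KO cover and to -0.9985 Mb over those with more WT cover. The gain was spread out, since 22 bins were needed for 50% of it and the top 10 bins held 27.1%. Without those 10 bins the KO over WT ratio of the chromosome was 2.26, and without any single bin it stayed between 2.55 and 2.66.

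**Figure D2:**
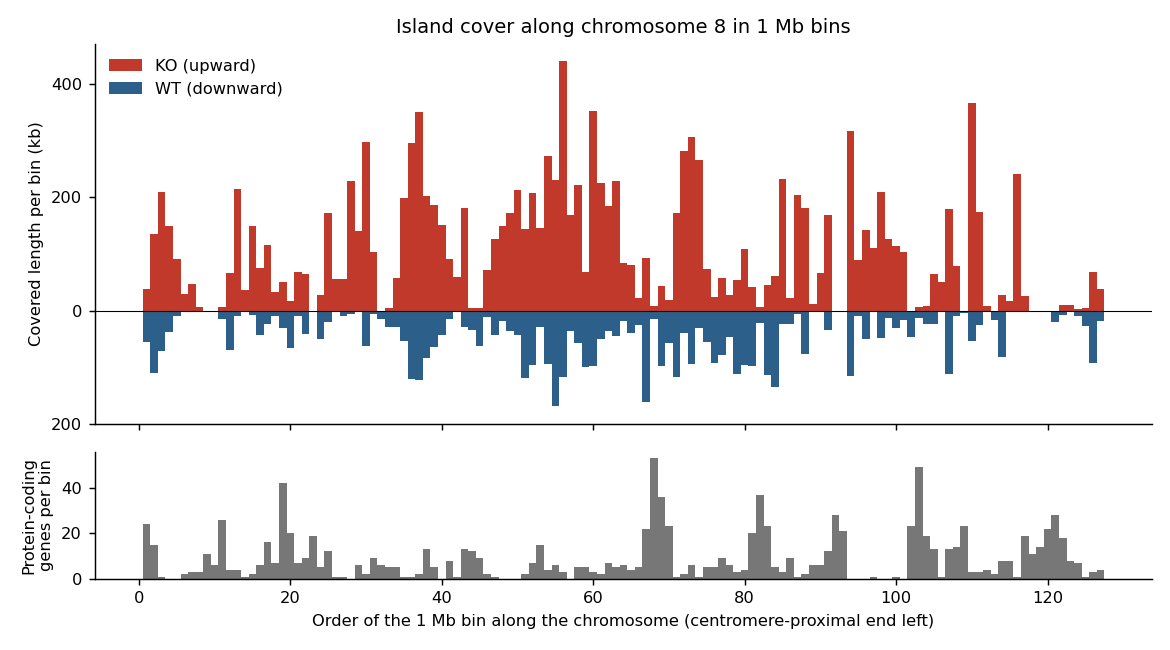
Covered length per 1 Mb bin (kb) in the order of the 127 bins along chromosome 8, KO upward and WT downward, above the number of protein-coding genes in each bin. KO bars reach 440.5 kb and WT bars 168 kb, and KO bars are mostly short where genes are many.

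The largest gain lay in chr8:58000001-59000000, with 440.5 kb in 40 KO islands and 117 kb in 11 WT islands. This bin holds most of Galntl6, a gene related to the enzymes that start mucin-type O-glycosylation. Next was chr8:112000001-113000000, with 367 kb in KO and 54 kb in WT, which holds the neuronal adhesion gene Cntnap4. Cntnap4 itself had 61.4 kb in KO and no WT island, so most of this gain lay outside it. The bin chr8:62000001-63000000 had 353 kb in KO and 97 kb in WT and holds Anxa10 and parts of Ddx60 and Spock3. Of these, Anxa10 had 33.7 kb in KO and 31 kb in WT. These 3 bins hold 3 protein-coding genes each.

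The other 7 of the top 10 bins had differences of 213 to 243.5 kb. The bin chr8:118000001-119000000, which holds much of Cdh13, had 242 kb in KO and no WT island. The gene-free bin chr8:30000001-31000000 had 229.5 kb in KO and 6 kb in WT. The others touched Isx and Hmgxb4, Nr3c2, Nrg1, Tusc3 and Msr1, and Iqcm. Not all of these gains lay over the named genes. Isx had 9.83 kb and Tusc3 2 kb, both in KO alone, and Hmgxb4 had no island. Nr3c2 had 48.5 kb in KO and 31.5 kb in WT, while Nrg1 and Iqcm had the long KO cover given below. Of the 10 bins, 9 held at most 3 protein-coding genes. For comparison, 14 of the 127 bins on the chromosome held no such gene and 42 held 1 to 4. No test was run on this count.

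Called bins formed runs. The longest was 9 bins, chr8:37000001-46000000, with 1719.5 kb in KO and 527 kb in WT. A run of 8 bins, chr8:96000001-104000000, had 1215 kb in KO and 281.5 kb in WT. That run holds the cadherin genes Cdh8 and Cdh11. Runs of 5 bins lay at chr8:48000001-53000000 and chr8:62000001-67000000. The excess thus extended over several neighbouring megabases.

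WT cover was the higher in shorter runs. The longest run of bins with more WT than KO cover was chr8:68000001-73000000, with 187 kb in KO and 356 kb in WT, which holds a cluster of zinc finger genes. Runs of 4 bins lay at chr8:78000001-82000000 (166 kb in KO, 326.5 kb in WT) and chr8:83000001-87000000 (156 kb in KO, 365 kb in WT). The largest difference in favour of WT was in chr8:86000001-87000000, with 61 kb in KO and 134 kb in WT. The bin chr8:69000001-70000000, which holds Zfp930, had 92.5 kb in KO and 160.5 kb in WT, and chr8:78000001-79000000, which holds Ttc29, had 24.5 kb in KO and 92.5 kb in WT. The bin chr8:85000001-86000000 had 46 kb in KO and 113 kb in WT. A difference of -56.5 kb (KO minus WT) was found both in chr8:47000001-48000000, with 5 kb in KO and 61.5 kb in WT, and chr8:81000001-82000000, with 54.5 kb in KO and 111 kb in WT. The longest stretches of bins without a WT island were 5 bins at chr8:8000001-13000000 with 84.5 kb in KO and 6 bins at chr8:117000001-123000000 with 285 kb in KO. In the 6 bins, 242 kb of the KO cover was in the Cdh13 bin, and 3 bins, chr8:120000001-123000000, had no island in either list.

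Most of the added KO cover lay where protein-coding genes were few. In the 14 bins without such genes islands covered 16.5% in KO and 3.44% in WT, and KO was higher in 14 of 14. In the 42 bins with 1 to 4 genes they covered 15.4% in KO and 4.42% in WT. In the 40 bins with 5 to 12 genes the values were 7.925% in KO and 4.02% in WT, and in the 31 bins with 13 or more 4.94% in KO and 4.05% in WT. The first 2 classes held 77.8% of the net difference, with 22.1% in gene-free bins and 55.8% in bins of 1 to 4 genes. On the other autosomes these classes held 24.7% and 62.1% of theirs, so this placing was not particular to chromosome 8. Across the 127 bins, which share their libraries, the Spearman coefficient of cover with gene number was -0.52 for KO and -0.04 for WT. Across the bins of the other autosomes it was -0.56 for KO and -0.18 for WT.

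Set beside the other 18 autosomes class by class, chromosome 8 was low in WT wherever genes were few. On those autosomes islands covered 19.6% in KO and 6.33% in WT of gene-free bins, 15.0% in KO and 6.36% in WT of bins with 1 to 4 genes, and 7.425% in KO and 5.98% in WT of bins with 5 to 12 genes. In bins with 13 or more genes they covered 4.69% in KO and 4.28% in WT. With the mix of bins that chromosome 8 has, these levels would give 10.6% in KO and 5.73% in WT, a ratio of 1.85. The measured values were 10.6% in KO and 4.10% in WT. The ratio of chromosome 8 was the highest of the 19 in the first 3 classes and ranked 7 in the last. The chromosome was chosen for its ratio over these same bins. The ranks and the comparison with 1.85 are therefore description only. No test of these differences is possible with 1 library per genotype.

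**Figure D3:**
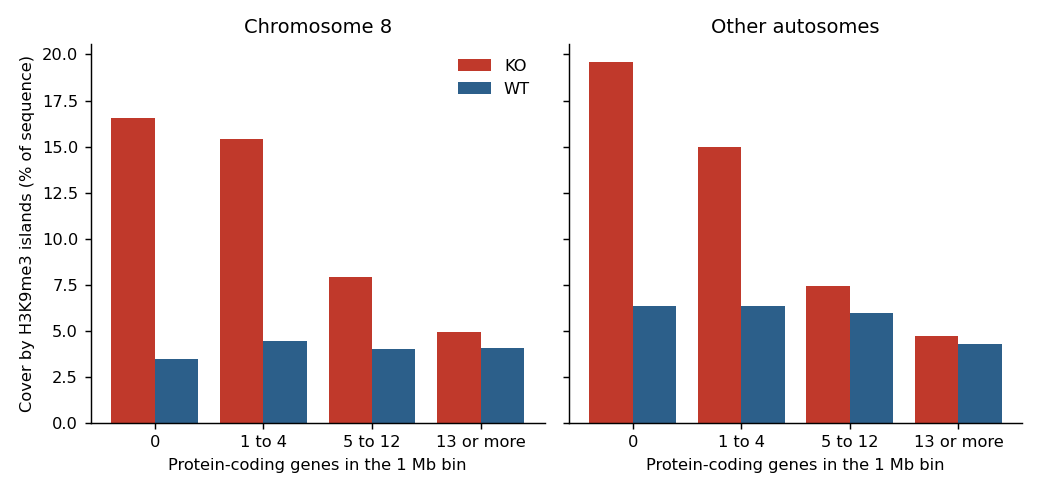
Share of sequence covered by islands (%) in 1 Mb bins grouped by their number of protein-coding genes, for chromosome 8 (left) and the other 18 autosomes (right), with KO bars left of WT bars. In bins of 1 to 4 genes chromosome 8 has 15.4% in KO and 4.42% in WT, and the other autosomes 15.0% in KO and 6.36% in WT.

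By annotation, 64.1% of the length covered in KO alone lay outside any gene, 27.4% in protein-coding genes and 8.10% in lncRNA genes. For the length in WT alone these shares were 60.8%, 31.2% and 6.94%. Protein-coding genes make up 40.5% of the bins, so their share of the cover of both lists was below their share of the sequence. The longest KO island, chr8:40069501-40113000, spanned 43.5 kb with 1679 reads in no protein-coding gene, and WT islands lay over 28.7% of it. The next, chr8:61786501-61822000 in Palld, an actin-binding protein gene, spanned 35.5 kb with 1813 reads and no WT island overlapped it. The longest WT island, chr8:79829001-79854000, spanned 25 kb with 906 reads, lay outside protein-coding genes and had no KO partner. The densest island of the chromosome was in WT, at chr8:71129001-71133500, with 497 reads or 110 per kb, against at most 61.5 per kb in any KO island there.

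Counted by gene, KO and WT came out nearly even. A gene was counted when an island touched it or the 2 kb on either side. Of 1043 protein-coding genes, 65 had an island in KO alone (6.23%), 62 in WT alone (5.94%) and 52 in both (4.99%), and 864 in neither. Over all autosomes 6.52% had one in KO alone, 6.77% in WT alone and 8.03% in both. The excess showed in length and not in gene number, since the 52 genes with islands of both carried 2.73 Mb in KO and 1.17 Mb in WT. Of the 32 gene regions of 300 kb or more, 23 had more KO cover and 3 more WT cover, and 13.5% of their length was covered in KO and 3.38% in WT. On the other autosomes 13.5% of the length of such regions was covered in KO and 5.73% in WT. In regions of 10 to 30 kb the order was the other way, with islands over 19 of 408 in KO and 31 of 408 in WT. The order was the same on the other autosomes, with 418 of 6996 in KO and 541 of 6996 in WT. Regions under 10 kb had islands more often in KO, over 15 of 238 in KO and 8 in WT. On the other autosomes these were 741 of 4904 in KO and 480 in WT. Regions of 30 to 100 kb and of 100 to 300 kb were even on chromosome 8, at 35 of 289 and 23 of 76 in each list. On the other autosomes they were 662 in KO and 843 in WT of 5295, and 650 in KO and 700 in WT of 1806.

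The genes with the largest differences in favour of KO were long. Galntl6 (chr8:57772489-58912531) had 457.5 kb in 40 KO islands and 171 kb in 15 WT islands. Sgcz (chr8:37517840-38661705), which encodes zeta-sarcoglycan of the dystrophin complex, had 349 kb in KO and 69 kb in WT. Cdh13 (chr8:118140017-119324929), the gene of T-cadherin, had 226 kb in 19 KO islands and no WT island. With 2 kb on each side these regions span 1144 kb, 1148 kb and 1189 kb.

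Nrg1, a ligand of ErbB receptors, had 249 kb in KO and 36.5 kb in WT. Iqcm had 239.5 kb in KO and 58.5 kb in WT, and 44.4% of its region was covered in KO. Tenm3, a teneurin that pairs neurons at synapses, had 149.5 kb in KO and 11.5 kb in WT. None of the Tenm3 cover was shared between the lists. Sorbs2, a cytoskeletal adaptor gene, had 130.5 kb in KO and Csmd1, a complement regulator of the brain, 103.5 kb in KO, both without a WT island. Gpm6a, whose internal promoter is printed above, had 133 kb in KO and 27.5 kb in WT, and Spock3, a testican proteoglycan gene, 122 kb in KO and 22.5 kb in WT.

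These 10 genes held 1.76 Mb of the difference, 21.3% of the net difference of the chromosome. Spock3 was the last of the 10, with a difference of 99.5 kb, and Marchf1 followed just outside with 89 kb. These differences shrank by unequal amounts when only the denser islands were kept. Among islands no less dense than their list's median, KO minus WT was 15 kb at Cdh13, 16.5 kb at Spock3, 17.5 kb at Csmd1, 35 kb at Tenm3 and 63 kb at Nrg1. It was 177.5 kb at Galntl6, 161.5 kb at Sgcz, 137.5 kb at Iqcm, 76.5 kb at Sorbs2 and 72 kb at Gpm6a, so KO cover stayed the longer at all 10 genes. With equal island numbers by reads per kb the 10 differences lay between 10 kb (Spock3) and 100.5 kb (Iqcm), with 41.5 kb at Galntl6 and 79 kb at Sgcz. Differences in favour of WT were smaller. Cdyl2, a chromodomain protein gene, had 5.50 kb in KO and 35 kb in WT. Pard3, a cell polarity gene, had 23 kb in WT and no KO island, Ttc29, a sperm tail gene, 22 kb, Stox2 21.5 kb and Adam32, a testis ADAM gene, 19.5 kb, all in WT alone. Among the denser islands the differences at Pard3, Ttc29 and Stox2 were 0 kb, while that at Adam32 was -19.5 kb. Anxa10, an annexin gene, had similar cover of 33.7 kb in KO and 31 kb in WT, of which 16.5 kb was shared.

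**Figure D4:**
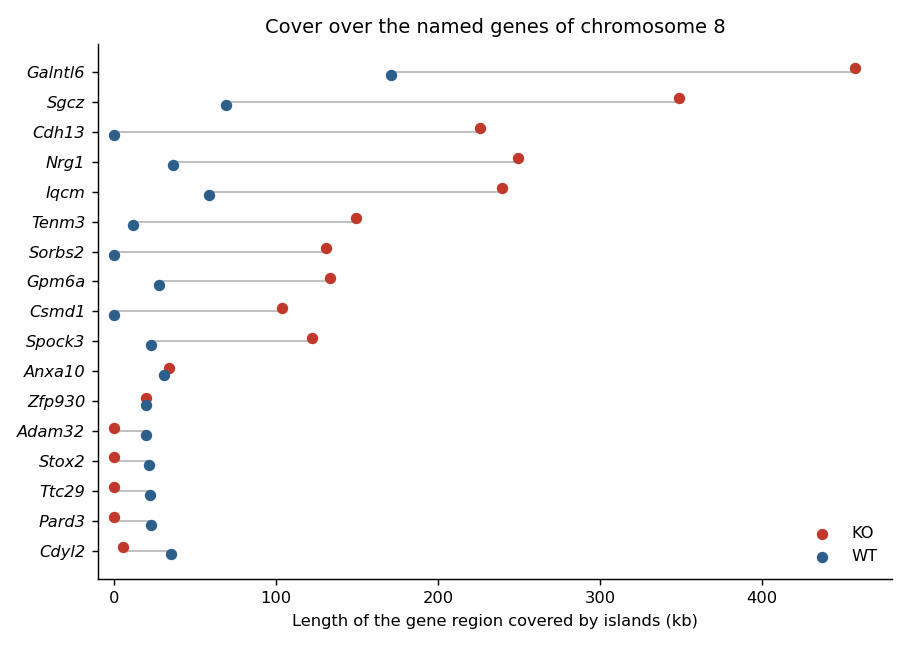
Length covered by islands (kb) over genes named for the largest difference or the longest shared cover, KO in red above WT in blue, ordered by KO minus WT. Cdh13, Sorbs2 and Csmd1 have WT points at 0, and Zfp930 has the same value, 19.5 kb, in both lists.

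A list of neuronal, synaptic and other long genes held 8 of the 10 genes with the largest KO excess. The list was chosen with earlier results of these data known, so this overlap and the shares below are description only. Islands lay over 24 of its 35 members in KO (68.6%) and 16 in WT (45.7%), against 11.2% in KO and 10.9% in WT of all 1043 genes. KO cover was longer in 21 members and WT cover in 5, and the median difference was 3.23 kb, against 0 kb over all 1043 genes. Its members summed to 2215 kb in KO and 608 kb in WT, and much of that lay over genes not known mainly from neurons, such as Galntl6, Sgcz and Sorbs2 with the values above. The median member region was 197 kb, against 21.9 kb over all genes, so its length moved with the count and its part in the result was not tested. Dlgap2, a postsynaptic scaffold gene, had similar cover of 67 kb in KO and 60.5 kb in WT, and Cntnap4 had 61.4 kb in KO alone. Of the 8 cadherin genes, Cdh13 and Cdh8 (65 kb) had KO islands and none had a WT island, while Cdh1, Cdh3, Cdh5, Cdh11, Cdh15 and Cdh16 had none in either list.

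Zinc finger genes had more members with an island in WT than in KO. Of 26 Zfp genes on the chromosome, 4 had an island in KO (15.4%) and 11 in WT (42.3%), against 11.2% in KO and 10.9% in WT of all 1043 genes, with 7 in WT alone and none in KO alone. Many genes of this family encode DNA-binding repressors of retroelements. Zfp930 had 19.5 kb in both lists and Zfp958 9.50 kb in KO and 12.6 kb in WT. The genes in WT alone included Zfp964 (9.5 kb), Zfp866 (8.5 kb), Zfp961 (8 kb) and Zfp882 (3.395 kb), whose start is printed above. With 10 kb on each side instead of 2 kb the counts were 7 in KO and 11 in WT. Neighbouring members can share an island, so the members are not independent.

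Among tandem gene families, defensins and carboxylesterases had more members with an island in KO. Of 53 defensin genes, which encode antimicrobial peptides, 11 had an island in KO (20.8%) and 3 in WT (5.66%), against 11.2% in KO and 10.9% in WT of all 1043 genes. Without flanks the counts were 7 in KO and 3 in WT, and with 10 kb on each side 17 in KO and 8 in WT. Among islands no less dense than their list's median they were 10 in KO and 0 in WT, and with equal island numbers by reads 6 in KO and 3 in WT. Defb1 had 6.18 kb in KO alone, and Defb38 7.17 kb and Defb50 7.80 kb in WT alone. Defb11 had 5.06 kb in KO and 3.93 kb in WT. Among these 53, all with an island within 2 kb were beta-defensin genes (Defb), and no Defa gene had one. Outside this list, the pseudogenes Defa-ps11 (4.83 kb), Defa-ps13 (2.29 kb) and Defa-ps14 (4.94 kb) had islands in KO alone. Some listed genes were barely touched, such as Defb34 (0.04 kb), Defb8 (0.606 kb) and Defb5 (0.828 kb), all in KO alone. Of 19 carboxylesterase genes, which encode hydrolases of esters and drugs, 6 had one in KO (31.6%) and 1 in WT (5.26%), including Ces5a (12 kb) and Ces1d (9.80 kb) in KO and Ces3a (4.43 kb) in WT. Among islands no less dense than their list's median the carboxylesterase counts were 2 in KO and 1 in WT, with equal island numbers by reads per kb 2 in KO and 1 in WT, and by reads 3 in KO and 1 in WT. Of 14 ADAM protease genes 3 had one in each list, among them Adam3 (12.5 kb) and Adam29 (9.55 kb) in KO alone and Adam18 with 6 kb in KO and 22 kb in WT. Read-sharing between near-identical copies in these families is uncertain, since the handling of reads with several matches is not stated.

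T cell and immune genes of the chromosome had islands about as often as its protein-coding genes in general. Of 40 such genes, 5 had an island in KO (12.5%) and 6 in WT (15%), against 11.2% in KO and 10.9% in WT of all 1043 genes. No island of either list lay over 32 of the 40 (80%), against 82.8% of all genes, and the 32 included Jak3, Klf2, Junb, Irf8, Irf2, Nfatc3, Il12rb1 and Il27ra. Il15, a cytokine that maintains memory CD8+ T cells, had 7.50 kb in KO and 8 kb in WT at 1 place inside the gene. The KO island there, chr8:82362501-82370000, held 312 reads and the WT island, chr8:82362001-82370000, held 409. Marchf1, a ubiquitin ligase that lowers surface MHC class II, had 109 kb in KO and 20 kb in WT over a region of 859 kb. Ddx60, a helicase gene of the interferon response, had 5.70 kb in KO and 19 kb in WT. Tlr3, a receptor for double-stranded RNA, and Maf, a transcription factor of T cells, had 6.84 kb and 3.75 kb in WT alone.

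**Figure D5:**
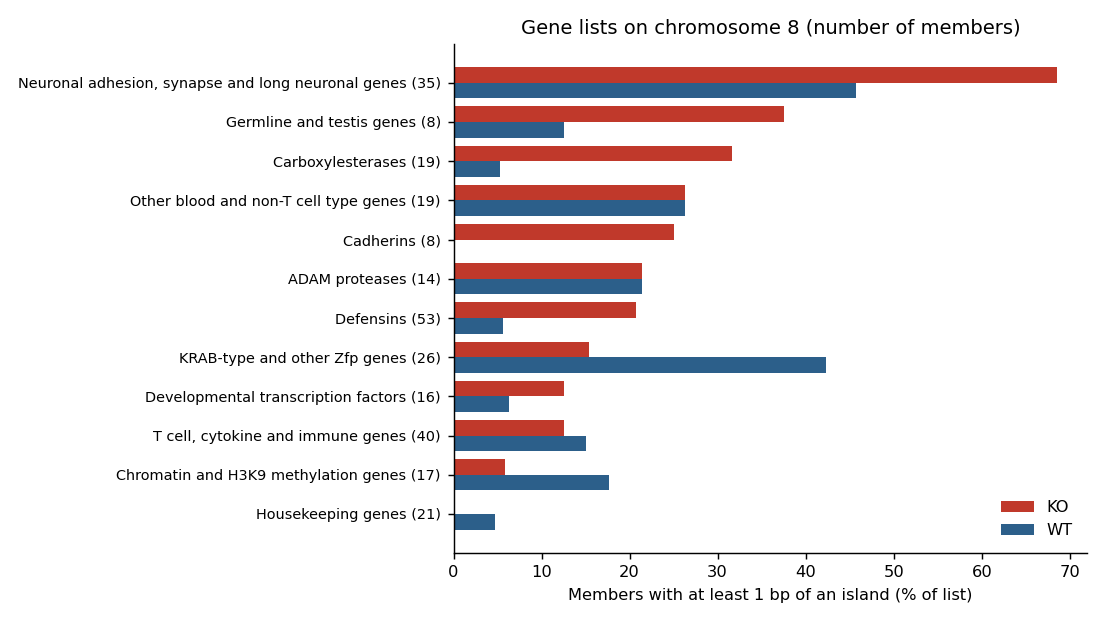
Percent of the members of each gene list on chromosome 8 with at least 1 bp of an island, KO bars above WT bars, for the lists with 8 or more members. KO bars are longer for the list of neuronal and long genes (24 of 35 in KO, 16 in WT), and WT bars are longer for Zfp genes (4 of 26 in KO, 11 in WT).

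The remaining lists are small, and their shares are read against 11.2% in KO and 10.9% in WT of all 1043 genes. Of 17 chromatin genes 1 had an island in KO and 3 in WT, where Cdyl2 held most of the length and Tnks, a tankyrase gene, had 9 kb in WT alone. Of 16 developmental transcription factor genes 2 had one in KO, Zfhx3 (20.5 kb) and Tox3 (15.5 kb), and 1 in WT, Hand2 (2.02 kb). Of 8 germline and testis genes 3 had one in KO (37.5%) and 1 in WT (12.5%), with Hydin, a gene of motile cilia, at 73 kb in KO and 8.5 kb in WT and Tex15, a meiosis gene, at 13.5 kb in KO alone. Of 19 genes of other blood and non-T cells 5 had one in each list (26.3% in KO and 26.3% in WT), including the scavenger receptor gene Msr1 with 23 kb in KO and 13.5 kb in WT and Vegfc with 8.47 kb in KO and 8.5 kb in WT. Adamts18, the 1 member of its family here, had 20 kb in KO alone. Of 5 olfactory receptor genes Olfr371 had 1.504 kb in KO and 4.504 kb in WT and Olfr370 had 0.688 kb in WT alone. Of 706 lncRNA genes 73 (10.3%) had an island in KO alone and 32 (4.53%) in WT alone, against 9.06% and 5.43% over all autosomes. None of 4 metallothionein genes had an island, and of 21 housekeeping genes Hook3 had 14.5 kb in WT alone.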

How the data were processed

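H3K9me3 ChIP-seq (chromatin immunoprecipitation with sequencing) of 2 libraries, 1 Suv39h1-KO and 1 WT, was analysed through the deposited island lists. Per the submitters' processing notes, reads were handled with Bowtie2 and SICER 1.1 on mm10. Window, gap, threshold and use of the input are not stated there. The authors deposited a whole-number count per island without a header, taken as reads in the island, since it followed island length (Spearman coefficient across chromosome 8 islands 0.983 in KO and 0.97 in WT). Counts are not scaled, and depth is unknown.

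Islands lie on a grid of 500 bp and were converted to positions counted from 1. Genes came from the RefSeq table of GRCm38.p6, without 363 rows on scaffolds. Bins of 1 Mb run from the first to the last that holds an annotated gene or an island, and a gene was counted in each bin it touched. The 15 gene lists and the chromosome were chosen with earlier results of these data known, and the printed promoters after their values were seen. Genes were named by fixed ranks: the 10 largest differences for KO, 6 for WT, 6 longest shared covers, and up to 2 members per list and genotype; other names are examples chosen after their values were seen. A gene that the ranks name is not reported here. Interval functions were tested on simulated data. Python 3.11.15, pandas 2.3.3 and scipy 1.17.1 were used. Alternatives were other island filters, equal island numbers, joining, bin sizes and flanks.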

Additional observations from a re-analysis of the deposited data

How the results depend on the processing

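No paired analysis was possible because there is 1 library of either genotype, which also leaves no replicate spread. Only autosomes were ranked. Results counted as kept when they moved by at most 1.5 times, or for overlap stayed within their intervals. The intervals served only as a fixed margin and not as a test, since they hold counting error only. Chromosome 8 had the highest KO over WT ratio and the lowest WT cover of the 19 autosomes under all 6 other island lists. With equal numbers of islands the WT islands were unchanged, so the rank by WT cover there only repeats the main result. All 6 lists were made from the islands by which the chromosome was chosen, so its ranks there are description only. The ranks by cover were added after the data were seen. Its rank by KO cover moved only to 8, among the denser islands of either list and with equal numbers of islands by reads per kb.

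With the KO list reduced to the WT number, keeping the KO islands with most reads per kb, the ratio of covered length on chromosome 8 reversed to 0.978, with 1.21 times as many islands, 23.6% of KO and 27.9% of WT islands overlapped, 8 called bins and 40 genes in KO alone. The share of the difference by gene number has no value there, since the net difference was negative. Keeping instead the KO islands with most reads, the ratio was 1.70 and that of island number 1.35, with 22.0% of KO and 29.7% of WT islands overlapped, 35 called bins, 31 genes in KO alone, and islands in KO over 2 Zfp and 2 T cell genes. Both settings drop KO islands alone. Keeping islands no less dense than their list's median gave overlaps of 13.7% of KO and 33.3% of WT islands, 34 called bins, 39 genes in WT alone, 33 in both, and WT islands over 9 neuronal and 3 T cell genes. Requiring 50% of an island gave overlaps of 14% of KO and 35.3% of WT islands. Bins of 0.5 Mb and 2 Mb gave 108 and 33 called bins. With 10 kb flanks 7 Zfp genes had a KO island. When an island had to lie over 50% of a gene with its flanks, 7 genes were in KO alone, 12 in WT alone and 3 in both.

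Over 18 named genes and 8 settings, 3 of 144 differences reversed, all at Anxa10, to -0.307 kb with islands of at least 5 kb and to -5.81 kb and -8.81 kb with equal numbers by reads per kb and by reads. A further 35 moved by over 1.5 times without reversing, among them Cdh13, with 15 kb in place of 226 kb among the denser islands. The cause of these changes, apart from the dropped islands, was not tested.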

Other observations

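Genes without protein products on chromosome 8 had islands more often in KO alone than in WT alone. Of 706 lncRNA genes, 73 (10.3%) had one in KO alone and 32 (4.53%) in WT alone. Of 405 pseudogenes, 57 (14.1%) had one in KO alone and 22 (5.43%) in WT alone, against 11.6% in KO alone and 5.66% in WT alone of pseudogenes on the other autosomes. For lncRNA genes the shares on the other autosomes were 8.98% in KO alone and 5.48% in WT alone, so the order was the same there. The longest lncRNA cover was over 1700019L22Rik, with 123 kb in KO and 18.5 kb in WT, and D030068K23Rik, with 110 kb in KO and 32.6 kb in WT. Gm27246 had 50.8 kb in KO alone, and Sorbs2os, antisense to Sorbs2, 47.7 kb in KO alone. The lncRNA values share islands with the genes they overlap, and no test was run on them.

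By blocks of 10 Mb the KO over WT ratio was highest, at 5.01, in chr8:110000001-120000000, with 9.41% covered in KO and 1.88% in WT. It was lowest, at 0.771, in the block at the distal end, chr8:120000001-130000000, with 1.35% covered in KO and 1.75% in WT. The block with most cover in both lists was chr8:50000001-60000000, with 21.5% in KO and 7.56% in WT.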
